A study of Mus musculus with 7 samples.

Results

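The genes described here encode the MHC class II pathway, by which dendritic cells, B cells and macrophages show peptides from engulfed proteins to CD4+ T cells. A total of 10 genes was followed: H2-Aa, H2-Ab1 and H2-Eb1 (chains of the classical class II molecules), Cd74 (invariant chain), H2-DMa, H2-DMb1, H2-Oa and H2-Ob (peptide loading), Ifi30 (antigen processing) and Ciita (transcriptional control). They were chosen as members of 1 pathway, and every probe set annotated to 1 of them alone was used. Of the 10 genes, 8 had such probe sets, 12 in all, among the 12393 genes with a probe set of their own on the array. H2-DMb1 and H2-Ob were measured only by 3 probe sets that also name another gene, and these are given apart.

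The cells were splenic CD11c+ cells, enriched with magnetic beads from mice 7 days after an allogeneic transplant of hematopoietic stem cells. CD11c is an integrin carried by most dendritic cells and by some macrophages. The samples comprised 3 arrays labelled Atg16L1 hypomorphic and 4 labelled WT, all C57BL/6J by background, and mice of both groups had received the transplant. Atg16l1 encodes a protein that helps attach LC3 to autophagosome membranes, and a hypomorphic allele is one with reduced, not absent, function. The age is given as 9 weeks at collection in the sample protocol and as 8 weeks in the series description. The sources used here do not give the donor strain, the kind of allele, or whether donor, recipient or both carried it. Nor do they tie each array to its own mouse, and the p-values therefore reflect the spread among the 7 samples, which may be technical.

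A class II molecule is a pair of an alpha and a beta chain that assembles in the endoplasmic reticulum around the invariant chain Cd74, which blocks the peptide groove. In endosomes proteases trim Cd74 to a short remnant, and the H2-DM pair exchanges that remnant for antigen peptides, a step held back by the H2-DO pair. Transcription of most of these genes depends on Ciita, a coactivator that does not bind DNA itself and is recruited by the RFX, CREB and NF-Y factors sitting on conserved X and Y boxes before the genes.

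Promoter stretches around a Y box core are shown because Ciita is known to act through X and Y boxes at class II genes. RefSeq promoter windows of the GRCm38.p6 assembly, from 250 bases before to 50 after the start site, were searched for 7 of the 10 genes on both strands. The Y box core was ATTGG, which reads CCAAT on the opposite strand. The longer Y box was CTGATTGG, which contains the core, and the X box pattern, a 14-base consensus with free positions, was allowed 1 mismatch. Each line gives 60 bases, 5′ to 3′ along the gene's strand, with matches to the X box pattern and the Y box core in capitals.
H2-Aa (chr17:34287857-34287916, minus strand): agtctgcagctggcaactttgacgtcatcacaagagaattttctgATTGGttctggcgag
H2-Eb1 (chr17:34305763-34305822, plus strand): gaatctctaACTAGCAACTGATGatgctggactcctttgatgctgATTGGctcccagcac
H2-DMb1 (chr17:34153085-34153144, plus strand): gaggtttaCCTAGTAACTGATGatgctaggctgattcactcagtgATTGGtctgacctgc
H2-Oa (chr17:34092291-34092350, plus strand): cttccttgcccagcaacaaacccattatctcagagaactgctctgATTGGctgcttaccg
H2-Ob (chr17:34238803-34238862, plus strand): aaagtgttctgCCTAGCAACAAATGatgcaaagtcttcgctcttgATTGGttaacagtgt

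In the stretches shown, the Y box core began 43 to 61 bases before the start site in these 5 genes, at 48 bases in H2-Aa, 59 in H2-Eb1, 61 in H2-DMb1, 43 in H2-Oa and 57 in H2-Ob. The X box pattern was found in H2-Eb1, H2-DMb1 and H2-Ob, ending 22, 23 and 20 bases before the Y box core. The longer Y box was found in H2-Aa, H2-Eb1 and H2-Oa. The window of H2-Eb1 held 2 cores, 1 of them outside the stretch shown. Of the 8 windows of the 7 genes, H2-DMa had the core in 1 of its windows only, and Ifi30, on chromosome 8, had no match to any of the motifs. Of all 32851 promoter windows, 37.4% held the core, 4.1% the longer Y box, 7.88% the X box pattern and 2.86% both the pattern and the core. A match is a description of the letters and does not show that a factor was bound. Nor does the lack of a match, as for the X box pattern in H2-Aa and H2-Oa, show that a box is absent.

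No class II probe set passed the test between genotypes, and the most marked feature of the values was a single array. Hypomorph replicate 1 gave the highest value for 9 of the 12 probe sets, among them every probe set of H2-Aa, H2-Ab1, H2-Eb1, Cd74, H2-DMa and Ifi30. Over all probe sets of the array that replicate was highest for 16.2%. The other hypomorph arrays lay near or slightly below wild type for the classical chains. Groups were compared with limma over all 22625 probe sets with Benjamini-Hochberg adjustment. The test called 0 of the 12 at an adjusted p of 0.05, where 0.0% of all probe sets were called, and 1 of the 12 at an unadjusted p of 0.05, where 7.69% of all probe sets passed (4.35% higher and 3.34% lower in the hypomorph). None of the 12 had groups that did not overlap, as 5.57% of all probe sets did (3.07% higher and 2.5% lower in the hypomorph).

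**Figure D1:**
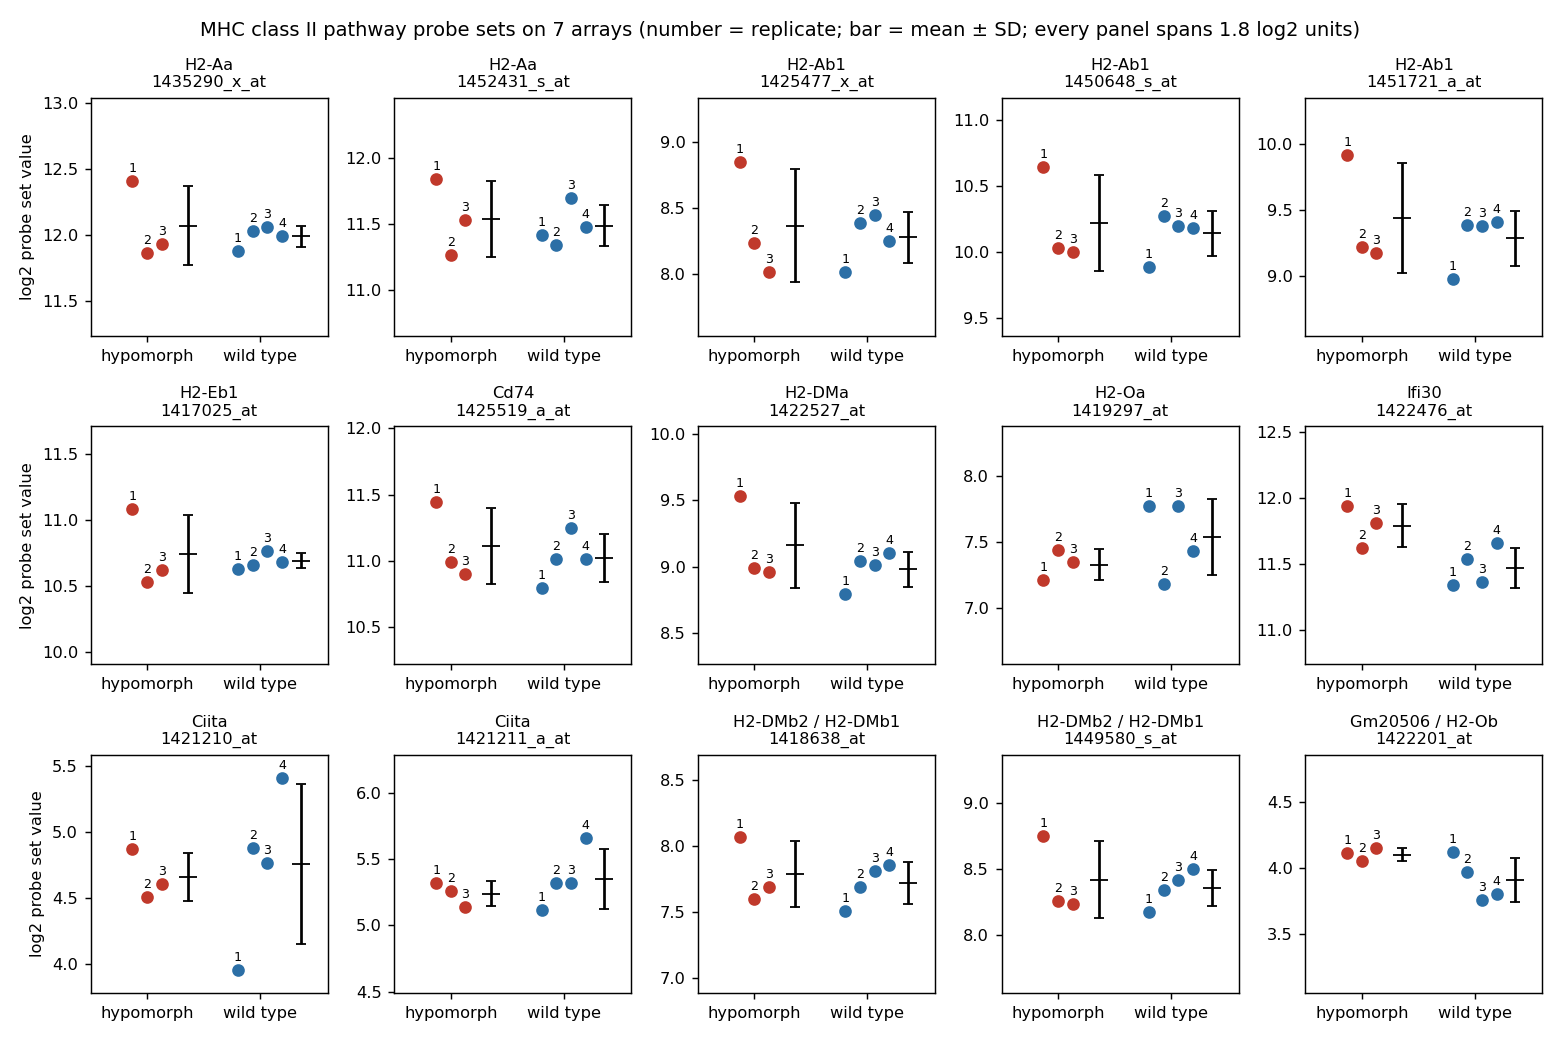
Log2 value (vertical axis, of equal span in every panel) of each class II pathway probe set on 3 hypomorph arrays (red) and 4 wild-type arrays (blue), with replicate numbers beside the points and the mean ± SD at the right of each group. Hypomorph replicate 1 stands above all other arrays in the panels of H2-Aa, H2-Ab1, H2-Eb1, Cd74 and H2-DMa, and the groups overlap in every panel.

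H2-Aa and H2-Ab1 encode the alpha and beta chains of I-A, the class II molecule that C57BL/6 mice display. The first of 2 H2-Aa probe sets (1435290_x_at) read 12.41, 11.86 and 11.93 on the log2 scale in hypomorph replicates 1 to 3, against 11.88, 12.03, 12.06 and 11.99 in wild-type replicates 1 to 4. One hypomorph array was above all wild-type arrays, 1 was below all of them, and the third lay within their range. The mean was 12.07 ± 0.301 (SD, n = 3) in the hypomorph and 11.99 ± 0.0795 (SD, n = 4) in wild type, a log2 change of 0.08 with a 95% confidence interval from -0.24 to 0.39 (limma adjusted p = 0.898). The second H2-Aa probe set (1452431_s_at) read 11.84, 11.27 and 11.53 in the hypomorph, against 11.42, 11.34, 11.70 and 11.48 in wild type. It gave a change of 0.06 (-0.28 to 0.39, limma adjusted p = 0.931).

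H2-Ab1 was measured by 3 probe sets, and all of them ordered the arrays in much the same way. The brightest (1450648_s_at) read 10.64 and 10.03 in hypomorph replicates 1 and 2 and slightly lower still in replicate 3, against 9.89, 10.27, 10.20 and 10.18 in wild type. Hypomorph replicate 1 was the highest array and wild-type replicate 1 the lowest, with the other hypomorph arrays between that array and the rest of wild type. The change was 0.09 (-0.31 to 0.49, limma adjusted p = 0.907). Probe set 1451721_a_at read 9.92, 9.22 and 9.18 in the hypomorph, against 8.98, 9.39, 9.38 and 9.41 in wild type, a change of 0.15 (-0.31 to 0.61). Probe set 1425477_x_at read 8.85, 8.24 and 8.02 in the hypomorph, against 8.02, 8.39, 8.45 and 8.25 in wild type, a change of 0.10 (-0.37 to 0.56). The mean of its hypomorph arrays was 8.37 ± 0.43 (SD, n = 3) and that of its wild-type arrays 8.28 ± 0.191 (SD, n = 4).

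H2-Eb1 encodes the beta chain of I-E, a second class II molecule. Its probe set (1417025_at) read 11.08, 10.53 and 10.62 in the hypomorph, against 10.63, 10.66, 10.76 and 10.68 in wild type. The wild-type arrays spanned a narrow range, and 1 hypomorph array was above it and 2 were below it. The mean was 10.74 ± 0.296 (SD, n = 3) in the hypomorph and 10.69 ± 0.0566 (SD, n = 4) in wild type, a change of 0.06 (-0.25 to 0.36, limma adjusted p = 0.919).

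The alpha chain that pairs with H2-Eb1 is encoded by H2-Ea, which is not one of the 10 genes. In C57BL/6 mice a deletion at the start of H2-Ea is known to abolish its transcript, and the RefSeq table lists it as a transcribed pseudogene. Probe set 1422891_at of H2-Ea nevertheless read 8.83, 8.65 and 8.85 in the hypomorph, against 8.69, 8.46, 8.97 and 8.75 in wild type, and 1422892_s_at read 9.43, 9.10 and 9.43, against 9.16, 9.08, 9.69 and 9.43. These readings lay above the upper quartile of every array (7.58 to 7.65) in both groups, with changes of 0.06 (-0.22 to 0.34) and -0.02 (-0.40 to 0.36). The third probe set, 1426202_at, read 2.03 to 2.25 over the 7 arrays, below the lower quartile of each (3.31 to 3.39). The source of the H2-Ea signal was not tested, and the labels name no donor strain.

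Cd74 followed the classical chains. Its probe set (1425519_a_at) read 11.44, 10.99 and 10.90 in the hypomorph, against 10.79, 11.01, 11.25 and 11.01 in wild type. Hypomorph replicate 1 was again the highest array and wild-type replicate 1 the lowest. The mean was 11.11 ± 0.286 (SD, n = 3) in the hypomorph and 11.02 ± 0.185 (SD, n = 4) in wild type, a change of 0.09 (-0.26 to 0.45, limma adjusted p = 0.887).

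H2-DMa encodes the alpha chain of H2-DM, the catalyst of peptide exchange. It read 9.53, 8.99 and 8.96 in the hypomorph, against 8.79, 9.04, 9.01 and 9.10 in wild type. Apart from hypomorph replicate 1, the hypomorph arrays fell inside the wild-type range. The change was 0.17 (-0.18 to 0.52, limma adjusted p = 0.767). The beta chain gene H2-DMb1 has a close relative beside it, H2-DMb2, and 2 probe sets name both. Of these, 1449580_s_at read 8.75, 8.26 and 8.24 in the hypomorph, against 8.18, 8.34, 8.42 and 8.50 in wild type, and 1418638_at read 8.07, 7.60 and 7.69, against 7.51, 7.69, 7.81 and 7.86. Hypomorph replicate 1 was the highest array and wild-type replicate 1 the lowest in both, with changes of 0.06 (-0.27 to 0.39) and 0.07 (-0.24 to 0.38). The probe set that names H2-DMb2 alone (1419744_at) was ordered differently, at 6.53, 6.23 and 6.12 in the hypomorph, against 6.46, 6.41, 6.76 and 6.52 in wild type, a change of -0.24 (-0.53 to 0.05, limma adjusted p = 0.656). There hypomorph replicates 2 and 3 were below all wild-type arrays.

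H2-Oa and H2-Ob encode the chains of H2-DO, which binds H2-DM and restrains it, and which B cells and some dendritic cells are known to make. H2-Oa (1419297_at) read 7.21, 7.44 and 7.35 in the hypomorph, against 7.77, 7.18, 7.77 and 7.43 in wild type. All 3 hypomorph arrays were below the wild-type mean but inside the wild-type range, and replicate 1, high for the classical chains, was the lowest hypomorph array here. The mean was 7.33 ± 0.117 (SD, n = 3) in the hypomorph and 7.54 ± 0.289 (SD, n = 4) in wild type, a change of -0.21 (-0.57 to 0.16, limma adjusted p = 0.734). The probe set for H2-Ob, which also names Gm20506, read 4.11, 4.05 and 4.15 in the hypomorph, against 4.12, 3.97, 3.76 and 3.80 in wild type. Its change was 0.19 (-0.04 to 0.42, limma adjusted p = 0.656), at a level under the median of every array (5.46 to 5.53).

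Ifi30 showed the largest change of the 12 probe sets. It encodes GILT, an enzyme that reduces disulfide bonds of proteins in endosomes and lysosomes so that they can be cut into peptides. Its probe set (1422476_at) read 11.94, 11.62 and 11.81 in the hypomorph, against 11.34, 11.54, 11.36 and 11.66 in wild type. Hypomorph replicates 1 and 3 were above every wild-type array, and replicate 2 was below wild-type replicate 4. The mean was 11.79 ± 0.163 (SD, n = 3) in the hypomorph and 11.47 ± 0.153 (SD, n = 4) in wild type, a level 1.24-fold higher. The log2 change was 0.31 (0.06 to 0.57), with an unadjusted p of 0.0235 and a limma adjusted p = 0.644, so it did not pass over all probe sets. At an unadjusted p of 0.05, 4.35% of all probe sets were higher in the hypomorph. Without hypomorph replicate 1 the change was 0.24.

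Ciita did not share the high values of hypomorph replicate 1. Probe set 1421211_a_at read 5.32, 5.26 and 5.14 in the hypomorph, against 5.12, 5.32, 5.32 and 5.66 in wild type, and 1421210_at read 4.87, 4.51 and 4.61, against 3.96, 4.88, 4.77 and 5.41. In both probe sets the highest and the lowest array were wild type, replicates 4 and 1, and all hypomorph arrays lay between them. The changes were -0.11 (-0.41 to 0.18, limma adjusted p = 0.817) and -0.09 (-0.80 to 0.61, limma adjusted p = 0.948), and the wild-type arrays of the second spread by 0.603 (SD, n = 4). Most of these readings were under the array medians. Without wild-type replicate 4 the second change was 0.13, and without wild-type replicate 1 it was -0.36.

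Set against the wild-type mean, with the brightest probe set for each of the 8 genes, the arrays can be compared across genes. Hypomorph replicate 1 deviated by 0.42 for H2-Aa, 0.50 for H2-Ab1, 0.40 for H2-Eb1, 0.42 for Cd74, 0.54 for H2-DMa and 0.47 for Ifi30, but by -0.33 for H2-Oa and -0.03 for Ciita. For the first 5 of these genes, hypomorph replicates 2 and 3 deviated by -0.15 to 0.01. Wild-type replicate 1 was the lowest wild-type array for the same 5 genes, at -0.06 to -0.25. The median deviation of the 8 genes was 0.42, -0.10 and -0.09 on hypomorph replicates 1 to 3, against -0.16, 0.02, 0.07 and 0.02 on wild-type replicates 1 to 4. The median over all genes lay between -0.015 and 0.015 on every array.

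**Figure D2:**
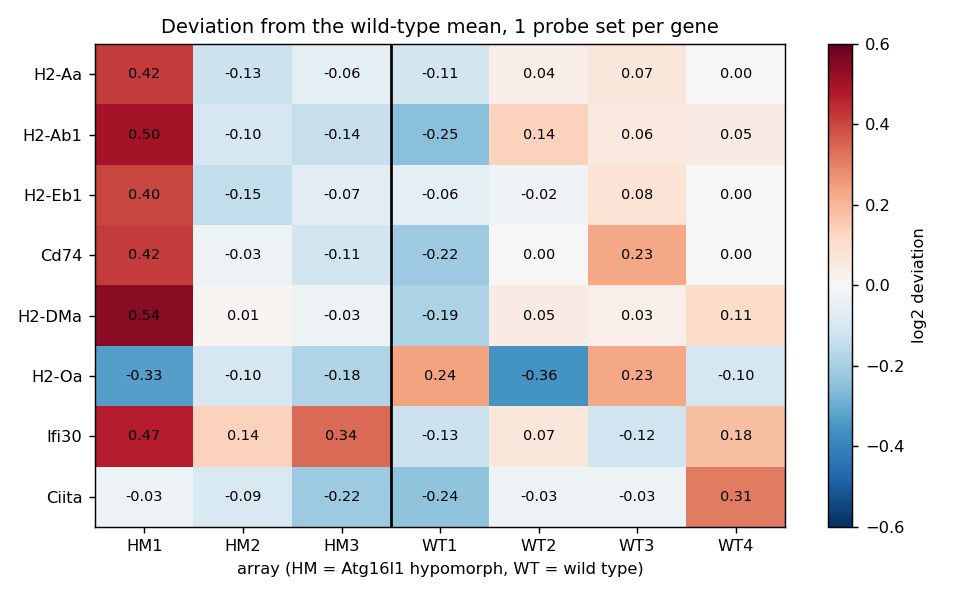
Log2 deviation of each array (columns, HM for hypomorph and WT for wild type) from the wild-type mean for 8 class II pathway genes (rows), red for higher and blue for lower. The column of HM1 is at 0.40 to 0.54 for H2-Aa, H2-Ab1, H2-Eb1, Cd74, H2-DMa and Ifi30, and at -0.33 for H2-Oa.

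Of the 8 genes, 6 had a positive and 2 a negative change, and the median log2 change was 0.08. Over all 12393 genes the median was -0.002, and 49.2% of the changes were positive. Both figures for the class II genes rested on hypomorph replicate 1. Without that array 1 of the 8 changes was positive (Ifi30), and the median was -0.10. For the classical chains the changes without it were -0.10 and -0.09 (H2-Aa), -0.14, -0.12 and -0.09 (H2-Ab1) and -0.11 (H2-Eb1). They were -0.07 for Cd74, -0.01 for H2-DMa and -0.07 and -0.11 for the probe sets of H2-DMb1 with H2-DMb2. The smallest limma adjusted p among the 15 probe sets was then 0.827. Without hypomorph replicate 2 or 3 the median over the 8 genes was 0.17, and without wild-type replicate 1 it was 0.03.

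**Figure D3:**
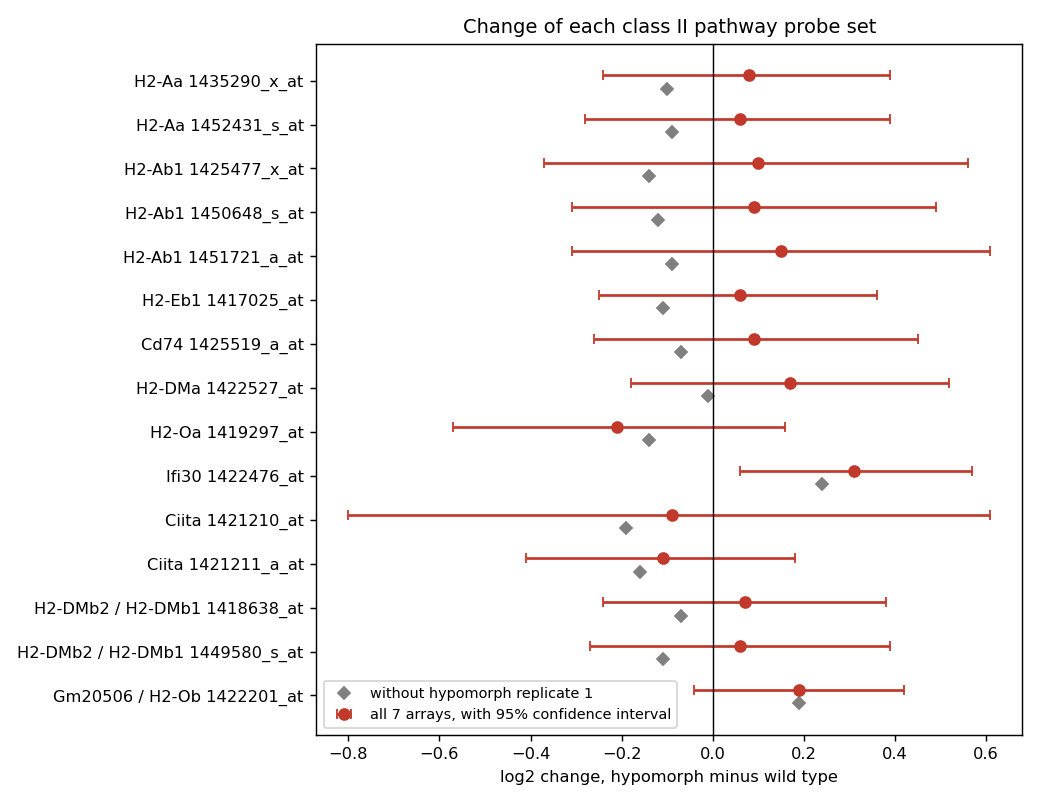
Log2 change, hypomorph minus wild type (horizontal axis), of the 15 class II pathway probe sets, in red for all 7 arrays with 95% confidence intervals and in grey without hypomorph replicate 1. Only the interval of Ifi30 (0.06 to 0.57) leaves out 0, and without that array the points of H2-Aa, H2-Ab1, H2-Eb1, Cd74 and H2-DMa lie between -0.14 and -0.01.

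Markers of the cells that carry class II were read on the same arrays. The gene of CD11c itself, Itgax, read 7.98, 8.48 and 8.40 in the hypomorph, against 8.32, 7.98, 8.33 and 8.33 in wild type, and hypomorph replicate 1 was not high. The 7 dendritic cell markers, among them the growth factor receptor Flt3 and the transcription factors Zbtb46 and Batf3, had a median change of -0.07. Their mean deviation was -0.03, -0.10 and -0.05 in the hypomorph, against -0.09, -0.05, 0.13 and 0.01 in wild type. The markers differed on hypomorph replicate 1. Cst3 was highest there (12.35), and Flt3 (6.81), Ccr7 (4.99) and Batf3 (7.43) were above their wild-type means. Itgax, Zbtb46 (5.33) and Dpp4 (7.35) were below theirs. Flt3 read 6.61 ± 0.25 (SD, n = 3) in the hypomorph and 6.69 ± 0.304 (SD, n = 4) in wild type. Zbtb46, at 5.12 ± 0.356 in the hypomorph and 5.45 ± 0.206 in wild type, was near the array medians.

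Of the 11 measured B cell markers (of 12 listed), 9 had their lowest value on hypomorph replicate 1, the array with the highest class II values. Over all probe sets of the array, 13.9% were lowest on that replicate. The B cell antigen Ms4a1 (CD20) read 4.29, 6.56 and 6.46 in the hypomorph, against 6.72, 6.78, 6.92 and 7.03 in wild type. Cd79a, a signalling chain of the B cell receptor, read 3.27, 3.74 and 4.16 in the hypomorph, against 4.23, 4.04, 4.32 and 4.35 in wild type. Ighm, an immunoglobulin heavy chain gene that plasma cells also express strongly, was not lowest there, at 13.18, 13.26 and 13.69 in the hypomorph, against 12.99, 12.47, 12.89 and 13.41 in wild type. Pax5, a transcription factor of B cells, was the other exception, with a change of 0.09. Over the 11 markers the mean deviation was -0.60, -0.18 and 0.13 in the hypomorph, against -0.14, 0.04, 0.00 and 0.10 in wild type, and 9 of the 11 had a negative change. Their summed linear level, of which Ighm makes up most, was 9609 to 13851 in the hypomorph, against 6341 to 11581 in wild type. No marker was listed at 0, but Fcer2a read 2.90 to 3.46, around the lower quartiles. Cr2 (3.24 to 3.83), Fcrla (3.27 to 3.89), Blk (3.72 to 4.29), Pax5 and Cd79a were also dim, under the median of every array (5.46 to 5.53). Array values from a mixed cell preparation cannot tell fewer cells of a type from less RNA per cell.

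By their mean, markers of red pulp macrophages, which also make class II, did not single out hypomorph replicate 1. Vcam1 (13.16), C1qa (12.84), C1qb (12.42) and C1qc (12.06) were highest on that array, as 16.2% of all probe sets were. Spic and Mertk were highest on hypomorph replicate 3. Hmox1 and Slc40a1 were highest on wild-type replicate 2, and Cd163, Adgre1 and Axl on wild-type replicate 4. Each of the 11 markers had a positive change, as 49.2% of all genes did. Their median change was 0.25, and 0 passed an adjusted p of 0.05. Their mean deviation was 0.33, 0.15 and 0.33 in the hypomorph, against -0.55, 0.31, -0.21 and 0.45 in wild type, and their summed linear level was 34668 to 40401 in the hypomorph, against 23555 to 40045 in wild type. Wild-type replicate 1, the lowest wild-type array for the brightest probe sets of the class II chains and for Ifi30, had the lowest value. T cell markers ran the other way on that array: all 6 measured (of 8 listed) were highest on wild-type replicate 1, as 19.8% of all probe sets were. Their mean deviation was 0.07, 0.17 and -0.14 in the hypomorph, against 0.49, -0.35, 0.07 and -0.21 in wild type, and their summed linear level was 3448 to 4320 in the hypomorph, against 2916 to 5373 in wild type. The 5 measured CD11b lineage dendritic cell markers had a median change of 0.23 and the 5 of the CD8 lineage 0.05. The part of cell composition in the class II values was not tested.

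**Figure D4:**
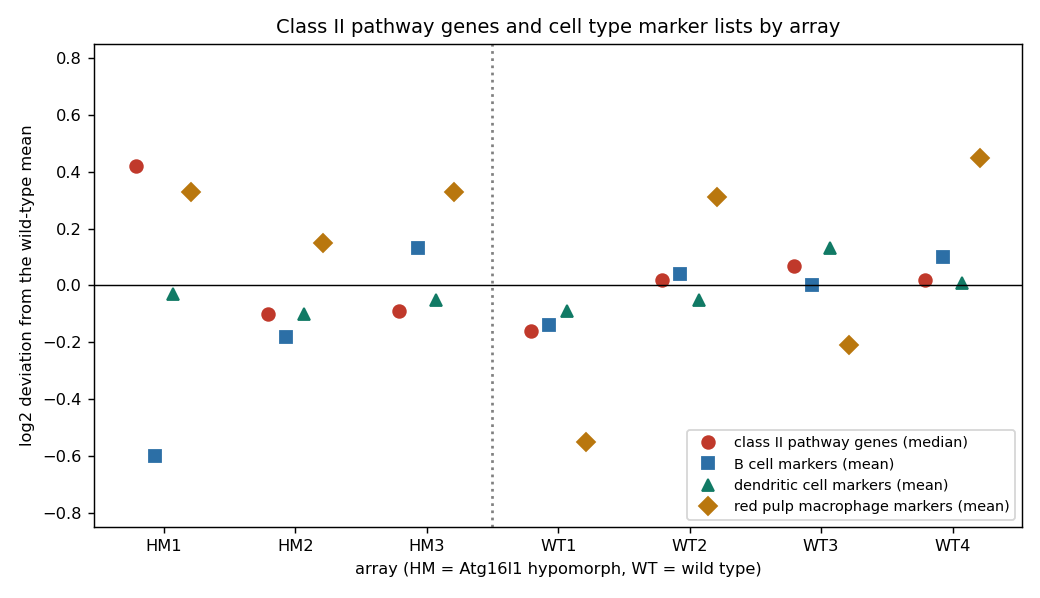
Log2 deviation from the wild-type mean (vertical axis) by array for the 8 class II pathway genes (median, circles) and for the mean of B cell (squares), dendritic cell (triangles) and red pulp macrophage markers (diamonds). On HM1 the class II genes are at 0.42 (their mean, not drawn, is 0.30) and the B cell markers at -0.60.

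The list of Cd74 trimming and antigen processing held 9 genes, mostly endosomal proteases, with Cst3, an inhibitor of cathepsins (0.02), and Unc93b1, a trafficking protein (0.03). Each of the 9 genes had a positive change, as 49.2% of all genes did, and their median was 0.30 (0.17 without wild-type replicate 1). Of the 9, 3 had an unadjusted p under 0.05, as 4.35% of all probe sets did in that direction, while 0 passed after adjustment. Ctss encodes cathepsin S, the protease that makes the last cuts in Cd74 in dendritic cells and B cells. It read 13.32, 12.90 and 13.17 in the hypomorph, against 12.66, 12.79, 12.89 and 12.85 in wild type. All hypomorph arrays were above all wild-type arrays, replicate 2 by the last digit only, and the change was 0.33 (0.07 to 0.58, limma adjusted p = 0.644).

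Ctsl, the related protease cathepsin L, read 11.56, 11.31 and 11.42 in the hypomorph, against 10.82, 10.97, 10.86 and 11.19 in wild type, a change of 0.47 (0.22 to 0.72, limma adjusted p = 0.644). Lgmn, an asparagine-specific endopeptidase, had a change of 0.51 (0.06 to 0.96), and the cathepsin gene Ctsb one of 0.30 (-0.08 to 0.68). The groups did not overlap for Ctsl and Ctss, as for 3.07% of all probe sets in that direction. Wild-type replicate 1 was the lowest array for Ctss, Ctsl, Lgmn and Ctsb, as it was for the macrophage markers, and the highest for the T cell markers. The part of these cell types in the changes was not tested. Without hypomorph replicate 1 the change was 0.23 for Ctss and 0.41 for Ctsl.

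**Figure D5:**
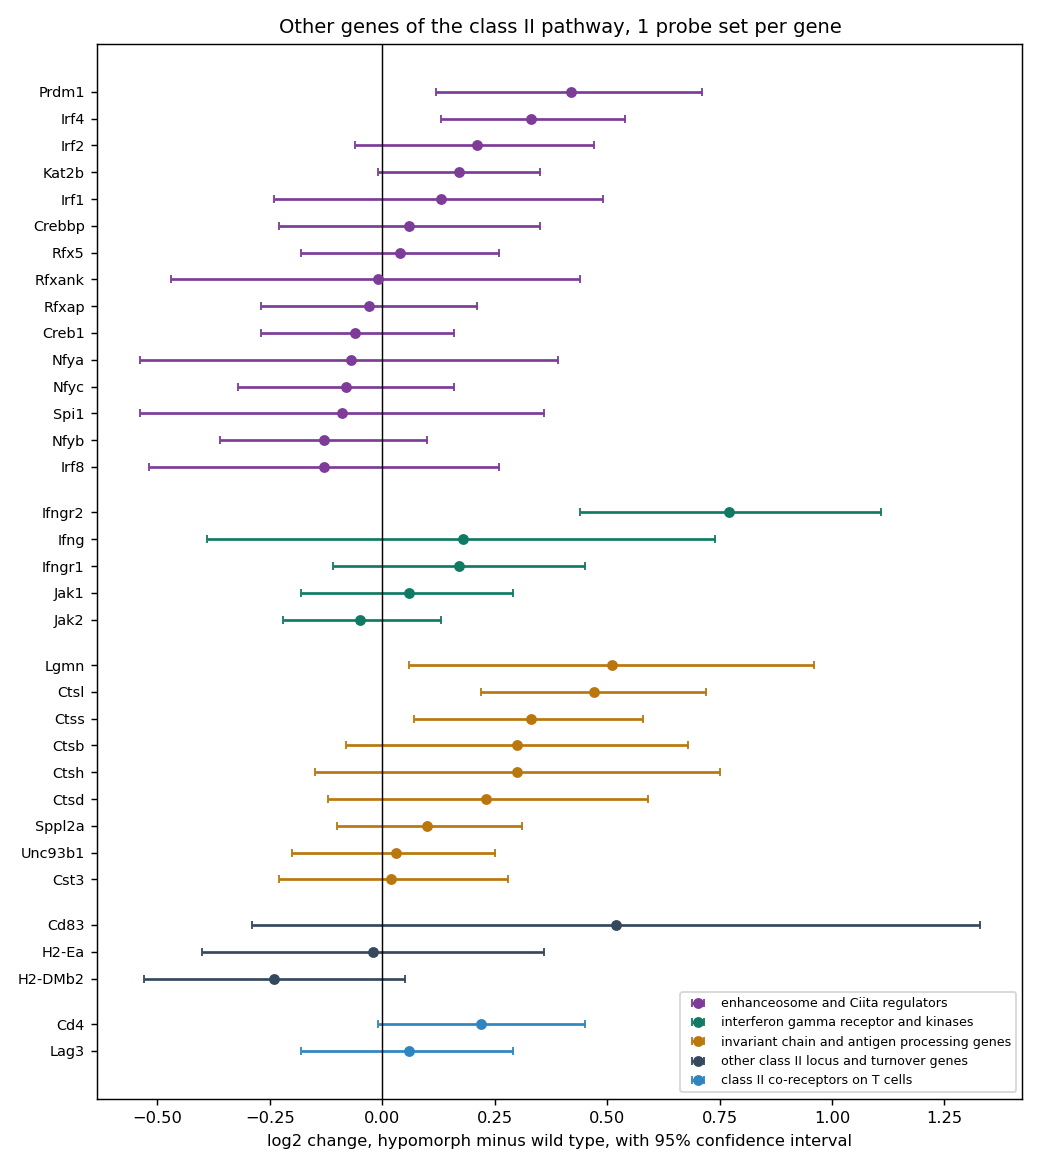
Log2 change, hypomorph minus wild type, with 95% confidence interval (horizontal axis) for 34 other genes of the class II pathway in 5 lists, 1 probe set per gene. All 9 genes of the Cd74 and antigen processing list lie at or above 0.02, and the 15 regulators spread to both sides of 0.

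The factors that assemble on the X and Y boxes or act on Ciita spread to both sides. Of 17 listed genes 15 were measured, 7 with a positive and 8 with a negative change, and the median was -0.01. For the DNA-binding RFX and NF-Y subunits the brightest probe sets gave 0.04 for Rfx5, -0.03 for Rfxap, -0.01 for Rfxank, -0.07 for Nfya, -0.13 for Nfyb and -0.08 for Nfyc. A dimmer Nfyb probe set gave -0.28 (-0.55 to 0.00, limma adjusted p = 0.644). A Rfxank probe set under the lower quartile of every array gave 0.20 (-0.01 to 0.40). The remaining probe set of Rfxank gave 0.03 and those of Nfya -0.02. Among the brightest probe sets of the listed genes, the smallest unadjusted p belonged to Irf4, Prdm1, Kat2b and Irf2. Irf4, a transcription factor of CD11b lineage dendritic cells, read 6.27, 6.12 and 6.33 in the hypomorph, against 5.94, 6.04, 5.79 and 5.86 in wild type, a change of 0.33 (0.13 to 0.54, limma adjusted p = 0.644). Its dimmer probe set gave 0.11 (-0.14 to 0.37).

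Prdm1 encodes Blimp-1, a repressor that acts on Ciita in plasma cells. It read 7.22, 6.96 and 7.00 in the hypomorph, against 6.83, 6.42, 6.83 and 6.52 in wild type, a change of 0.42 (0.12 to 0.71, limma adjusted p = 0.644). Neither Irf4 nor Prdm1 had overlapping groups, as 3.07% of all probe sets did not in that direction. Irf4 was also on the list of CD11b lineage dendritic cell markers and Prdm1 on that of plasma cells. The 5 measured plasma cell markers, Prdm1 among them, were all higher on average in the hypomorph, as were 49.2% of all genes. Their median of 0.42 was the change of Prdm1 itself. The others were at 0.75 (Jchain), 0.62 (Sdc1), 0.11 (Xbp1) and 0.05 (Tnfrsf17). Tnfrsf17 read 3.27 on every hypomorph array, below their lower quartiles. The histone acetyltransferase gene Kat2b had a change of 0.17 (-0.01 to 0.35) and Irf2 one of 0.21 (-0.06 to 0.47).

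Interferon gamma, signalling through Jak1 and Jak2, is the best known inducer of Ciita outside dendritic cells and B cells. Ifng itself read 8.53, 7.97 and 7.63 in the hypomorph, against 8.23, 8.00, 7.76 and 7.47 in wild type, a change of 0.18 (-0.39 to 0.74, limma adjusted p = 0.863). Irf1, which is induced by interferon gamma, read 10.39, 9.77 and 9.86 in the hypomorph, against 9.90, 10.03, 9.69 and 9.89 in wild type. Hypomorph replicate 1, the highest array for the class II chains, was also the highest for both, as for 16.2% of all probe sets. Without that array the changes were -0.07 for Ifng and -0.06 for Irf1. The brightest Ciita probe set deviated by -0.03 from the wild-type mean on that array. The part of interferon gamma in the class II values was not tested. Ifngr2, a chain of the interferon gamma receptor, read 7.78, 7.20 and 7.53 in the hypomorph, against 6.56, 6.65, 6.88 and 6.82 in wild type. Its change was 0.77 (0.44 to 1.11, limma adjusted p = 0.533) without overlap, as for 3.07% of all probe sets in that direction. The other Ifngr2 probe set gave 0.04 (-0.29 to 0.36), at readings of 4.67 to 5.21, under the median of every array (5.46 to 5.53).

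Of the receptor list all 5 genes were measured, 4 with a positive change, and the median was 0.17, or 0.06 without hypomorph replicate 1. Ifngr1 had a change of 0.17 (-0.11 to 0.45), and for Jak2 and Jak1 the brightest probe sets gave -0.05 (-0.22 to 0.13) and 0.06 (-0.18 to 0.29). Another Jak1 probe set gave 0.61 (0.07 to 1.15), so the probe sets of Jak1 and of Ifngr2 disagreed. Cd83, which protects class II molecules from degradation, read 9.34, 8.41 and 9.13 in the hypomorph, against 7.65, 8.96, 8.82 and 8.34 in wild type. Hypomorph replicate 1 was the highest and wild-type replicate 1 the lowest array, and the change was 0.52 (-0.29 to 1.33, limma adjusted p = 0.704). The T cell co-receptors that bind class II, Cd4 and Lag3, had changes of 0.22 (-0.01 to 0.45) and 0.06 (-0.18 to 0.29). A dimmer Cd4 probe set, at 3.35 to 3.50, gave 0.01 (-0.14 to 0.17).

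The candidates for likeness were 10356 probe sets of single genes, other than the 10 followed here, that were brighter than the median probe set. Genes of the other pathway lists were not left out. From these candidates, 5 were picked for the highest Pearson r with the mean of the 8 class II genes over the 7 arrays. These were Ptov1 (r = 0.952), Clcc1 (0.952), Pex11a (0.946), Tmem199 (0.934) and Arl1 (0.933). For comparison, H2-DMa had r = 0.961 with the mean that includes it, H2-Aa 0.957, H2-Ab1 0.946, H2-Eb1 0.937 and Cd74 0.937, but Ifi30 had 0.576, Ciita 0.436 and H2-Oa -0.401. All 5 genes so picked were highest on hypomorph replicate 1, Arl1 for instance with 9.17, 8.74 and 8.76 in the hypomorph, against 8.61, 8.72, 8.76 and 8.76 in wild type. Without that array r was 0.798 for Ptov1, 0.804 for Clcc1, 0.931 for Pex11a, 0.752 for Tmem199 and 0.703 for Arl1. The values are a description of 7 arrays and were chosen for their size.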

How the data were processed

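Per probe set, the file deposited for each array holds a log2 value made with Affymetrix Power Tools per the submitters' processing notes from 100 ng of total RNA on a Mouse430A array. The sources used here state neither its version nor the summary method or normalization. Of 22690 probe sets, 64 controls and 1 without a value were left out, leaving 22625. Symbols came from the array's deposited annotation, updated by Entrez identifier in a RefSeq table (20350 of 20379 single-gene probe sets matched, 691 named several genes and 1555 none). Probe sets ending in _x_at or _s_at can bind related transcripts.

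The values were used as they were and tested by the lmFit and eBayes functions of limma (3.58.1, under R 4.3.3) as hypomorph minus wild type without a block. P-values were adjusted by Benjamini-Hochberg across every probe set, and the threshold was 0.05. The fit was tested on simulated data. A gene with several probe sets enters lists with the brightest. The genes, lists and naming rule (in each pathway list up to 4 genes by smallest unadjusted p, H2-Ea always, 5 genes by likeness) were chosen with earlier results of these data known. Jak1, Jak2, Irf1, Cst3, Unc93b1, the RFX and NF-Y genes, and the marker genes were named beyond the rule, after their values were seen. Alternatives were other scalings and variance models, array weights, a block, an offset, all probe sets of a gene averaged, a filter on dim probe sets and leaving out each array. The number of arrays limits the precision.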

Additional observations from a re-analysis of the deposited data

Results flagged for a closer look

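In the group of 4 wild-type arrays, 2 of the 32 values tested had 1 array far from the others by Dixon's ratio, for which 0.829 is the limit, and chance gives about 1 in 20. For H2-Ab1 probe set 1451721_a_at the ratio was 0.944, since wild-type replicate 1 read 8.98 and the other wild-type arrays 9.38 to 9.41. For the mean of the 4 measured monocyte markers the ratio was 0.833, with wild-type replicate 4 at 10.27 and the others at 9.96 to 10.01. Groups of 3 were not tested in this way, so the high class II values of hypomorph replicate 1 were not covered.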

How the results depend on the processing

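Under every alternative run, 0 class II probe sets had a limma adjusted p under 0.05, and the smallest adjusted p was 0.215, for Ifi30 without hypomorph replicate 2 (0.40). The median change of the 8 genes ran from -0.10 to 0.17, and positive changes from 1 to 6, with single arrays left out. Without hypomorph replicate 1, 10 of 15 probe sets changed sign: H2-Aa to -0.10 and -0.09, H2-Ab1 to -0.14, -0.12 and -0.09, H2-Eb1 to -0.11, Cd74 to -0.07, H2-DMa to -0.01 and the H2-DMb1 probe sets to -0.07 and -0.11. Leaving out single arrays gave lowest and highest changes of -0.10 to 0.18 and -0.09 to 0.20 for H2-Aa. They were -0.14 to 0.27, -0.12 to 0.20 and -0.09 to 0.28 for H2-Ab1, -0.11 to 0.17 for H2-Eb1, -0.07 to 0.20 for Cd74 and -0.01 to 0.27 for H2-DMa. They were -0.36 to 0.13 for Ciita 1421210_at, and -0.07 to 0.16 and -0.11 to 0.15 for the H2-DMb1 probe sets. The replicate numbers do not pair the arrays by any label. The deviations of same-numbered arrays correlated at 0.102, 0.098 and 0.339, against -0.256 to 0.207 for arrays of different numbers. With the replicate number as a block, 945 probe sets were higher and 917 lower at an unadjusted p under 0.05, against 984 and 755 without it. Wild-type replicate 4 has no hypomorph array of its number and adds nothing to the changes in that fit. They therefore equal those found without that array, such as 0.13 for Ciita 1421210_at.

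Over all probe sets, 0 passed the adjusted threshold. The count was 5 with each array centred on its median, 5 with trend and robust settings, 3 with array weights and 5 with dim probe sets left out, and 0 to 2 with single arrays left out, none of them a class II probe set. With dim probe sets left out, 559 were higher and 498 lower at an unadjusted p under 0.05, since fewer were tested. With single arrays left out there were 598 to 1411 higher and 431 to 1578 lower. Averaging all probe sets of a gene moved the median of the 15 measured enhanceosome genes and Ciita regulators to 0.04, against -0.01.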
